A study of Arabidopsis thaliana with 27 samples.

Results

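H2A.Z is the variant of histone H2A that the SWR1 complex places into nucleosomes, and its genes and 3 genes of that complex are described here in developing Arabidopsis thaliana seeds. The group was fixed by name and holds 7 of the 27587 loci measured: the H2A.Z genes HTA8 (AT2G38810), HTA9 (AT1G52740), HTA11 (AT3G54560) and HTA4 (AT4G13570), and the SWR1 genes ARP6 (AT3G33520), PIE1 (AT3G12810) and SWC6 (AT5G37055). Their transcripts were counted by RNA sequencing of entire seeds (embryo, endosperm and seed coat together) of Col-0, the wild type in common use, with heart, bent or mature embryos. Once flowering had begun, plants were kept at a mean temperature of 23 °C as the control (day 24 °C, night 22 °C), 25 °C as the mild stress (day 26 °C, night 24 °C) or 27 °C as the severe stress (day 28 °C, night 26 °C). Each of the 9 groups had 3 libraries, each from a pool of seeds, which gives 27 libraries in all. No source states that the pools of a group came from separate plants, so p-values measure the spread between these pools.

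In nucleosomes that hold H2A.Z, the variant takes the place of canonical H2A beside H2B. SWR1 carries out this exchange with the energy of ATP: PIE1 is its ATPase and scaffold, ARP6 is an actin-related subunit and SWC6 is a zinc finger subunit. In Arabidopsis, mutants of SWR1 subunits flower early, and nucleosomes with H2A.Z are known for their part in the response of transcription to ambient temperature.

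HTA8 lies on chromosome 2 (16219220 to 16220928, minus strand), HTA9 on chromosome 1 (19645236 to 19646485, plus strand), HTA11 on chromosome 3 (20196140 to 20197726, plus strand) and HTA4 on chromosome 4 (7884516 to 7885982, plus strand), in RefSeq's annotation of TAIR10.1. ARP6 and PIE1 lie on chromosome 3 (14093656 to 14095588, minus strand, and 4065042 to 4074194, plus strand), and SWC6 on chromosome 5 (14641442 to 14642513, minus strand). Counts cover all exons of a gene. The H2A.Z genes are paralogs, so the transcripts were first compared with each other. The longest stretch that HTA8 and HTA11 share without a mismatch is printed to show how alike their transcripts are. It is 29 bases long, which is shorter than the reads of this study, so no full read lies within it. The longest stretch that either shares with HTA4 is 20 bases (RefSeq transcripts, 5′ to 3′, shared bases in lower case).
HTA8 and HTA11: aatgcgagcaaggatctcaaagtgaagag
HTA8 and HTA4, also HTA11 and HTA4: gtgtgatccctcacatccac
HTA8 and HTA9 share at most 17 bases in a row, and HTA9 and HTA11 at most 14. Among all words of 31 bases, 0 of the 927 words of HTA8, 0 of the 812 of HTA9, 0 of the 1029 of HTA11 and 0 of the 759 of HTA4 occurred in a transcript of any other locus. Words of this length therefore keep the 4 genes apart.

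The 250 bases before the annotated start of the 3 H2A.Z genes with counts are printed because these genes were lower together at 27 °C. Sequences are from RefSeq, assembly TAIR10.1, 5′ to 3′ on the strand of the gene, and capitals mark the site II words TGGGCC or TGGGCT (on either strand), which are known from promoters of genes of dividing cells.
HTA8 (chr2:16220929-16221178, minus strand): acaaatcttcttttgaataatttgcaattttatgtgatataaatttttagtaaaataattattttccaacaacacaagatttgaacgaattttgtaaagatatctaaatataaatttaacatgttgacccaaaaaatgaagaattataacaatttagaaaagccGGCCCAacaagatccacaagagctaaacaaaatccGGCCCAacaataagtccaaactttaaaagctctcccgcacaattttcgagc
HTA9 (chr1:19644986-19645235, plus strand): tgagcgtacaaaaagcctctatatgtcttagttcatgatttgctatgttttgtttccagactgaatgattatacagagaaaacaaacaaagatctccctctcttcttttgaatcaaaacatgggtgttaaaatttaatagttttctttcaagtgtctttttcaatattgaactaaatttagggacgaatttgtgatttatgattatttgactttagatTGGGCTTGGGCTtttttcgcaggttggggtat
HTA11 (chr3:20195890-20196139, plus strand): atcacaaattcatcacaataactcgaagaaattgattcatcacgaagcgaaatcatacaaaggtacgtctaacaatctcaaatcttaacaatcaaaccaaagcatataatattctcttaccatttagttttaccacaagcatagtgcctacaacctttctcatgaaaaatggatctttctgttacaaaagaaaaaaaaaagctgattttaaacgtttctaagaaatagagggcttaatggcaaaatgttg
Site II words stood at positions -86 to -81 and -51 to -46 of HTA8, and in 2 adjoining copies at positions -32 to -27 and -26 to -21 of HTA9, counted from the first transcribed base. Such a word was found in 21.7% of the 21375 windows of all genes, and this motif was chosen after the windows had been read. The words of 6 other motifs, searched on both strands, were found in none of the 7 windows. They were E2F (TTTCCCGC, TTTGGCGC, TTTGCCGC or TTTCGCGC, in 1.43% of all windows), the histone gene octamer (CGCGGATC, 0.15%), a heat shock element of 13 letters (0.412%), the G-box (CACGTG, 7.34%), the RY word (CATGCATG, 0.749%) and the telo-box (AAACCCTAA, 2.23%). A word in a window is a description and not a measured binding site.

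To rank the genes against each other, counts were divided by transcript length and scaled to the same total in each library (TPM). HTA9 led at every stage, with 211 ± 4.73 TPM in heart, 246 ± 15.5 TPM in bent and 174 ± 1.91 TPM in mature seeds at 23 °C (SD, n = 3). HTA11 followed with 138 ± 14.1, 94.4 ± 3.82 and 27.3 ± 6.81 TPM in the same order of stages, and HTA8 with 103 ± 8.32, 79.3 ± 8.02 and 21.9 ± 1.15 TPM. The libraries of HTA11 and HTA8 did not overlap in heart and bent seeds but did so in mature seeds, where their order was not resolved. The SWR1 genes were lower than HTA9 throughout. ARP6 had 34.5 ± 1.53, 26.7 ± 6.93 and 19.02 ± 1.02 TPM over the 3 stages, SWC6 13.3 ± 2.36, 15.5 ± 3.59 and 16.4 ± 1.16 TPM, and PIE1 12.3 ± 1.33, 14.3 ± 4.06 and 14.96 ± 0.73 TPM. PIE1 and SWC6 overlapped at each stage, and their order also depends on the length used: averaged over all libraries they had 14.7 and 14.65 TPM with the effective length given in the table, against 20.3 and 11.1 TPM with the plain transcript length.

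HTA4 was almost silent in seeds. It had 3 counts in replicate 3 of bent seeds at 23 °C and 1 count in replicate 1 of mature seeds at 25 °C. Every other library had a count of 0, which by counting error alone allows up to 3 counts. It did not reach 10 counts in 3 libraries, so 6 of the 7 genes entered the tests, and HTA4 has no fold change. HTA9, ARP6 and SWC6 had 1 annotated transcript each. HTA8 had 4, of which 3 carried 30.1%, 37.4% and 32.1% of its counts, HTA11 had 2 with 91.2% and 8.76%, and PIE1 had 2 with 99.9% in the main one. The division of reads between transcripts of 1 gene is an estimate.

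Total counts per library ranged from 17227596 to 19445885. Of the libraries, 3 stood apart. Replicate 1 of heart seeds at 23 °C held 94330 normalised counts of 9 embryo maturation markers (storage proteins and EM genes), against 1268 and 646 in the other 2 libraries of its group. Replicate 3 of bent seeds at 23 °C held 209470 normalised counts of 4 photosynthesis genes, chosen as markers of leaf or silique wall, against 107060 and 108760. Its size factor (the scaling by which counts are divided) was 0.829, against 1.08 and 1.04. Replicate 2 of mature seeds at 25 °C had a size factor of 0.979, against 0.809 and 0.844, and the lowest maturation marker sum of its group (1534800, against 2906200 and 3289800 normalised counts). The stage labels were checked with the maturation markers, of which 8 were tested: 7 were higher in mature than in bent seeds at each temperature and 0 lower, and EM6 had a count of 0 in all heart and bent seeds at 23 °C. Within a stage the marker sums differed between temperatures. Heart seeds had 21.3 to 82.4 normalised counts at 25 °C and 7918 to 13372 at 27 °C. Bent seeds had 30684 to 67249 at 25 °C and 125090 to 260640 at 27 °C. Whether seeds of the same stage label were equally advanced at each temperature was not tested, also where 27 °C is compared with 25 °C.

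The H2A.Z genes were lower under severe stress in bent and mature seeds. At 27 °C against 23 °C, 3 of the 3 tested H2A.Z genes were called lower in bent seeds and 3 of 3 in mature seeds, with mean normalised counts changed by between -41.7% and -25.2%, while in heart seeds 0 of 3 were called (DESeq2, Benjamini-Hochberg adjusted p under 0.05), although 2 had an unadjusted p under 0.05. The drop in bent seeds was smaller in TPM. There the means at 27 °C and 23 °C were 67.3 and 79.3 for HTA8, 178 and 246 for HTA9, and 64.0 and 94.4 for HTA11. The stages at which a gene passed depend on the fit: with only the groups compared, all 3 H2A.Z genes were called in heart seeds, while HTA8 and ARP6 were not called in bent seeds. ARP6 was lower at all 3 stages, SWC6 in mature seeds only by this threshold, and PIE1 was not called at any stage. By edgeR, 1, 4 and 5 of the 7 genes were called at the 3 stages, as by DESeq2. Of the 7 genes, the number called lower was 1 for heart, 4 for bent and 5 for mature embryos, and 0 were called higher. Among all 21445 genes tested, 11.5%, 21% and 15.4% were called lower at the heart, bent and mature stages, and 12.6%, 15.9% and 14.7% higher. That split depends on the scaling: with library totals in place of size factors, 3061 genes were higher and 1346 lower in heart seeds (2695 and 2467 with size factors), and in bent seeds 5044 and 1768 (3412 and 4511). In normalised counts of HTA8, HTA9, HTA11 and ARP6, the 27 °C libraries lay below the 23 °C libraries with no overlap at all 3 stages. Of all genes tested, 22.9%, 24.1% and 25.4% did so at the successive stages, and 7.41% at all 3. The separation depends on the scaling: in TPM, HTA9 alone kept it at all 3 stages. HTA8 overlapped in bent seeds (up to 77.0 TPM at 27 °C, down to 71.7 at 23 °C), as did ARP6 (27.3 and 18.9). HTA11 overlapped in heart (129 and 121) and mature seeds (22.1 and 21.1).

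**Figure D1:**
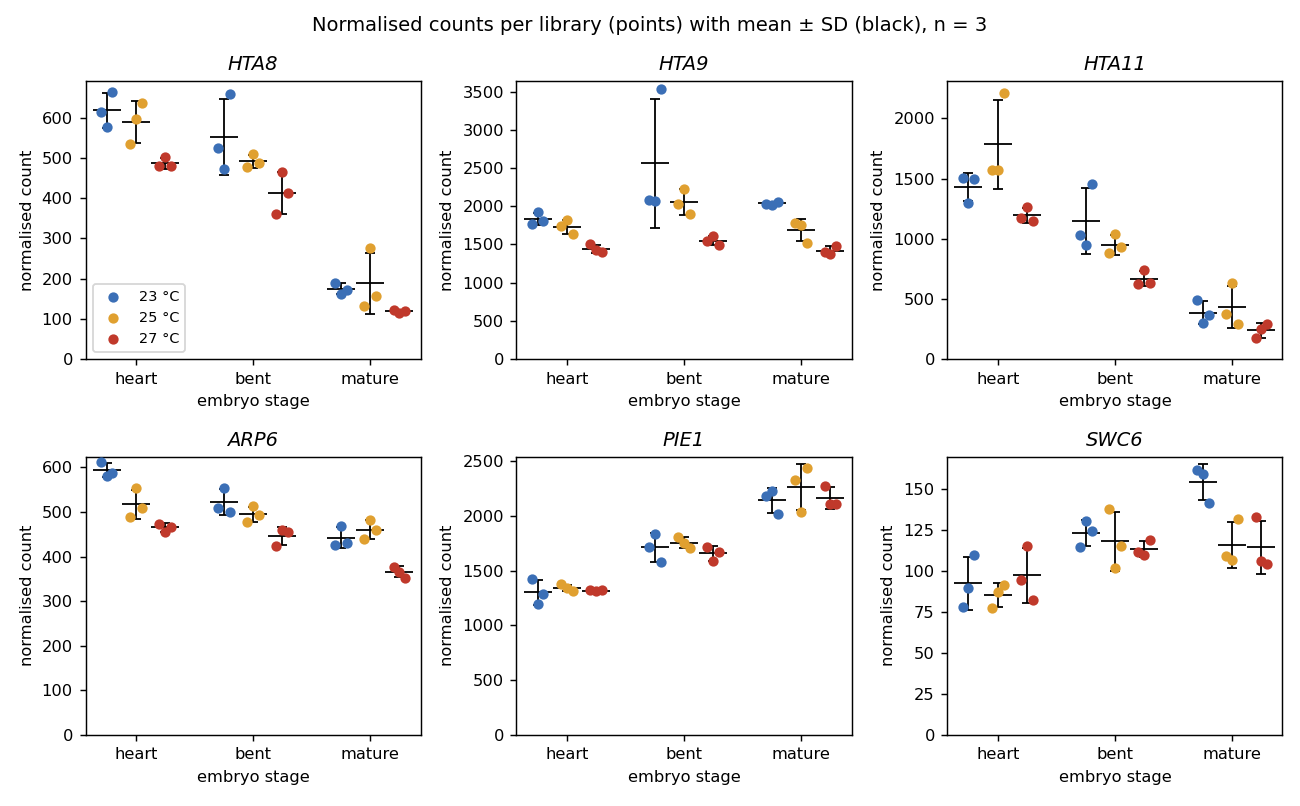
Normalised count (y axis, from 0) of 6 genes in each library, by embryo stage (x axis) and mean temperature (colour); points are libraries and black bars the mean ± SD, n = 3. HTA8, HTA9, HTA11 and ARP6 lie lower at 27 °C than at 23 °C at each stage with no overlap, PIE1 overlaps at each stage, and the highest HTA9 point of bent seeds at 23 °C is replicate 3.

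HTA9, the most abundant of the H2A.Z genes, had 1504, 1428 and 1403 normalised counts in heart seeds at 27 °C, against 1766, 1920 and 1812 at 23 °C. In bent seeds it had 1550, 1613 and 1488 normalised counts at 27 °C, against 2076, 2073 and 3529 at 23 °C. In mature seeds it had 1406, 1372 and 1478 normalised counts at 27 °C, against 2034, 2020 and 2052 at 23 °C. Every library at 27 °C was below every library of its stage at 23 °C, and replicate 3 of bent seeds at 23 °C was far above the rest. On the TPM scale, which uses no size factor, the bent libraries at 23 °C lay between 237 and 264 TPM, with replicate 3 again the highest. The log2 fold change was -0.72 in bent seeds (SE 0.14, adjusted p = 2.05e-06) and -0.52 in mature seeds (SE 0.14, adjusted p = 0.00122). In heart seeds it was -0.34 (SE 0.14, adjusted p = 0.0502), which missed the threshold. It passed there with library totals (-0.27, adjusted p = 0.0250), with TMM size factors (-0.34, adjusted p = 0.0453) and with only the groups compared (-0.33, adjusted p = 3.29e-05), and under each of these HTA9 was called at all 3 stages. The same held without replicate 3 of bent seeds at 23 °C and replicate 1 of heart seeds at 23 °C, an alternative chosen after seeing the data, with log2 fold changes of -0.37 in heart (adjusted p = 9.94e-06), -0.42 in bent (adjusted p = 2.88e-07) and -0.52 in mature seeds (adjusted p = 1.69e-12).

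HTA11 had 628, 743 and 635 normalised counts in bent seeds at 27 °C, against 1028, 951 and 1457 at 23 °C. In mature seeds it had 174, 250 and 293 normalised counts at 27 °C, against 492, 298 and 371 at 23 °C. The libraries did not overlap at either stage, although the highest at 27 °C and the lowest at 23 °C came close in mature seeds. HTA11 fell by 0.78 on the log2 scale in bent seeds (SE 0.23, adjusted p = 0.00399) and by 0.69 in mature seeds (SE 0.24, adjusted p = 0.0177). In heart seeds it had 1173, 1261 and 1148 normalised counts at 27 °C, against 1503, 1294 and 1497 at 23 °C, with a log2 fold change of -0.26 (SE 0.23, adjusted p = 0.455; with only the groups compared -0.25, adjusted p = 0.0387). The bent call was lost without replicate 3 of bent seeds at 23 °C (log2 fold change -0.57, adjusted p = 0.0638). The mature call was lost without replicate 1 at 23 °C (-0.48, adjusted p = 0.177) or without replicate 1 at 27 °C (-0.51, adjusted p = 0.146).

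HTA8 had 360, 465 and 412 normalised counts in bent seeds at 27 °C, against 524, 473 and 658 at 23 °C. In mature seeds it had 122, 116 and 120 normalised counts at 27 °C, against 189, 163 and 172 at 23 °C. In heart seeds it had 479, 502 and 479 normalised counts at 27 °C, against 613, 577 and 663 at 23 °C. The groups did not overlap at any stage. The log2 fold change was -0.34 in heart (SE 0.17, adjusted p = 0.121), -0.42 in bent (SE 0.17, adjusted p = 0.0379) and -0.55 in mature seeds (SE 0.19, adjusted p = 0.0180). With only the groups compared, the heart change passed (-0.33, adjusted p = 0.00494) and the bent change did not (-0.40, adjusted p = 0.0842). The bent call was also lost without replicate 3 at 23 °C (-0.28, adjusted p = 0.238), replicate 1 at 27 °C (-0.33, adjusted p = 0.17) or replicate 3 at 27 °C (-0.42, adjusted p = 0.0925), and with library totals (-0.22, adjusted p = 0.362). The mature call was lost without replicate 1 at 23 °C (-0.49, adjusted p = 0.0855) or replicate 2 at 27 °C (-0.53, adjusted p = 0.0619).

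ARP6 changed less than the H2A.Z genes in bent and mature seeds but was the only one of the 7 genes called at all 3 stages. It had 474, 455 and 467 normalised counts in heart seeds at 27 °C, against 611, 581 and 588 at 23 °C. In bent seeds it had 424, 460 and 456 normalised counts at 27 °C, against 509, 555 and 501 at 23 °C, and in mature seeds 378, 366 and 353 at 27 °C, against 427, 469 and 431 at 23 °C. At each stage the highest library at 27 °C was below the lowest at 23 °C. The log2 fold change was -0.35 in heart (SE 0.07, adjusted p = 4.59e-06), -0.23 in bent (SE 0.07, adjusted p = 0.00622) and -0.28 in mature seeds (SE 0.08, adjusted p = 0.00331). The bent call was lost without replicate 2 at 23 °C (-0.18, adjusted p = 0.0669) or replicate 1 at 27 °C (-0.19, adjusted p = 0.0524), and with only the groups compared the bent and mature calls were lost (-0.21 with adjusted p = 0.185 and -0.28 with adjusted p = 0.0646). With library totals as the scaling, which moves the median of all genes to 0.07, 0.15 and 0.01 at the 3 stages, ARP6 was called at none (log2 fold change -0.27 with adjusted p = 0.0775, -0.06 with adjusted p = 0.73 and -0.26 with adjusted p = 0.118).

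PIE1, the ATPase, had 1319, 1311 and 1325 normalised counts in heart seeds at 27 °C, against 1426, 1195 and 1283 at 23 °C. In mature seeds it had 2276, 2106 and 2111 normalised counts at 27 °C, against 2178, 2229 and 2018 at 23 °C. Its groups overlapped at every stage, and the log2 fold change was 0.02, -0.05 and 0.02 in heart, bent and mature seeds. The 95% confidence intervals ran from -0.12 to 0.16 in heart, from -0.19 to 0.09 in bent and from -0.13 to 0.16 in mature seeds, and these bound the change in either direction.

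SWC6 is the least counted of the tested genes, with 77.3 to 162 normalised counts per library. In mature seeds it had 133, 106 and 104 normalised counts at 27 °C, against 162, 159 and 141 at 23 °C. These groups did not overlap, and the log2 fold change was -0.43 (SE 0.16, adjusted p = 0.0297). The call was lost when any of 4 of the 6 mature libraries was left out, replicate 1 or 2 at 23 °C or replicate 2 or 3 at 27 °C (log2 fold changes from -0.41 to -0.37, adjusted p from 0.0938 to 0.131). In heart and bent seeds the groups overlapped, and the log2 fold change was 0.07 (95% confidence interval -0.25 to 0.39) and -0.12 (-0.43 to 0.19).

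**Figure D2:**
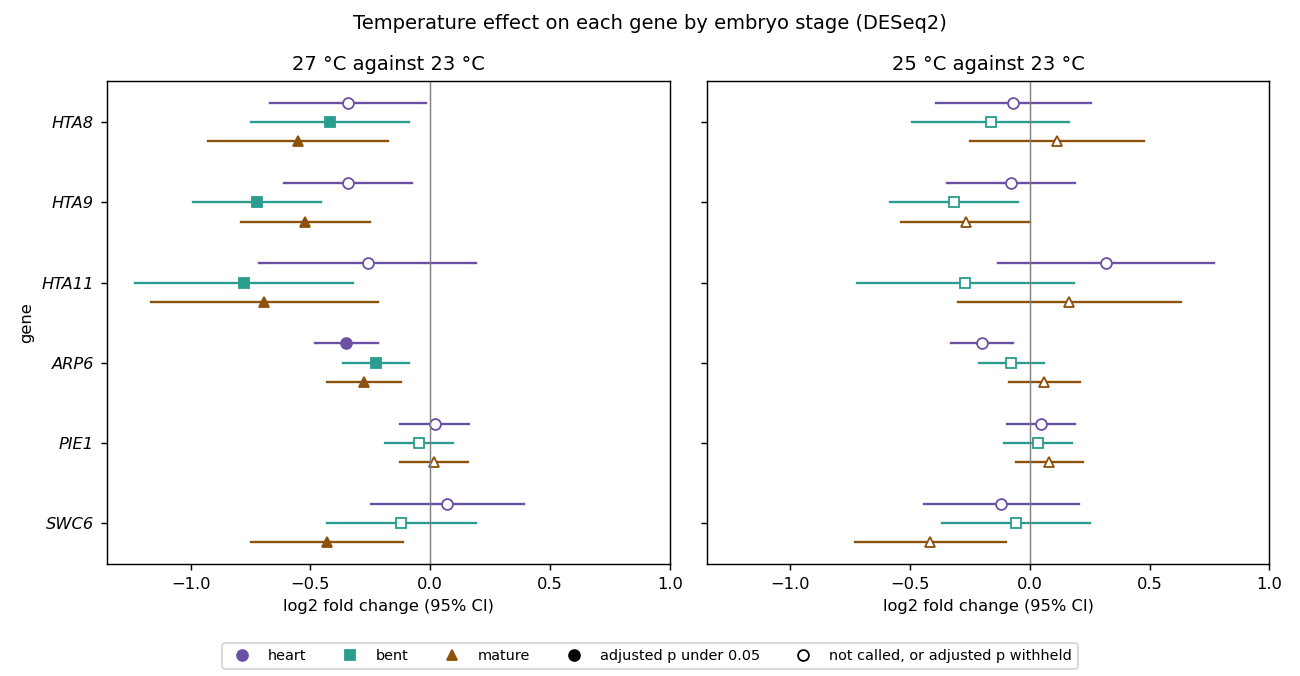
Log2 fold change with its 95% confidence interval (x axis) for 6 genes (y axis) at 3 embryo stages, for 27 °C against 23 °C (left) and 25 °C against 23 °C (right); filled symbols have an adjusted p under 0.05. The 10 filled symbols are all on the left and below 0, in HTA8, HTA9, HTA11, ARP6 and SWC6.

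A call at one stage and not at another does not show a difference between stages, so the 27 °C effect was compared between stages in the same fit. A difference was called in 0 of the 6 tested genes between bent and heart seeds and in 0 between mature and bent seeds (DESeq2; 0 also at an unadjusted p under 0.05 and by edgeR). Of all genes, 14.7% were called in the first of these comparisons and 5.5% in the second. The largest estimates were -0.52 for HTA11 (bent minus heart, SE 0.33, adjusted p = 0.313) and -0.38 for HTA9 (bent minus heart, SE 0.19, adjusted p = 0.185). Without replicate 1 or replicate 2 of bent seeds at 23 °C, the HTA9 difference was -0.51 and passed the threshold (adjusted p = 0.0365 and 0.0403). Over all 12 fits with 1 library left out it ranged from -0.51 to -0.08, and it passed in these 2 only. The 2 contrasts share the bent libraries.

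Under mild stress, 0 of the 6 tested genes were called at any stage (DESeq2, adjusted p under 0.05, 25 °C against 23 °C), where 0.821%, 3.06% and 1.6% of all genes were called at the successive stages. By edgeR's quasi-likelihood test 0 were called too, but that test called few genes of any kind (16 higher and 22 lower in heart, 0 in bent, 38 higher and 43 lower in mature seeds). In bent seeds the 657 genes called by DESeq2 became 21 higher and 61 lower without both 23 °C libraries that stand apart. Before adjustment, 1 gene per stage was under 0.05. These were ARP6 in heart (log2 fold change -0.20, SE 0.07, adjusted p = 0.171), HTA9 in bent (-0.32, SE 0.14, adjusted p = 0.0928) and SWC6 in mature seeds (-0.42, SE 0.16, adjusted p = 0.183). In bent seeds DESeq2 withheld the adjusted p of HTA8, ARP6 and SWC6, as it did for 15803 of the 21445 genes in all. Genes without an adjusted p could not be called, and the 3.06% above counts them in its base. HTA9 passed in bent seeds without replicate 1 or replicate 2 at 23 °C (log2 fold change -0.45 in both, adjusted p = 0.0191 and 0.0136). Over the 6 fits with 1 bent library left out, its change ranged from -0.45 to -0.02. In TPM it averaged 241 ± 18.5 in bent seeds at 25 °C and 246 ± 15.5 at 23 °C. The gene also passed in mature seeds when both 23 °C libraries that stand apart, of heart and bent seeds, were left out (-0.27, adjusted p = 0.00498). HTA9 had 1786, 1757 and 1525 normalised counts in mature seeds at 25 °C, against 2034, 2020 and 2052 at 23 °C, and SWC6 had 109, 106 and 132 at 25 °C, against 162, 159 and 141 at 23 °C. In both genes the 25 °C libraries were lower with no overlap, a pattern that 7.77% of all genes showed in mature seeds. ARP6 showed it in heart seeds, with 488, 553 and 510 normalised counts at 25 °C, against 611, 581 and 588 at 23 °C, as did 5.74% of all genes. In heart seeds HTA11 was the one gene whose 25 °C libraries lay above the 23 °C libraries, with 1570, 1572 and 2209 normalised counts at 25 °C, against 1503, 1294 and 1497 at 23 °C. The log2 fold change was 0.32 (SE 0.23) and was not called, and 5.36% of all genes were higher with no overlap. The 95% confidence interval at 25 °C took in the 27 °C estimate for HTA8 in heart and bent seeds (lower bounds -0.39 and -0.49, 27 °C estimates -0.34 and -0.42) and for HTA9 in heart and mature seeds (lower bounds -0.35 and -0.54, 27 °C estimates -0.34 and -0.52). Its lower bound lay above that estimate for HTA11 at each stage (lower bounds -0.13, -0.72 and -0.30, 27 °C estimates -0.26, -0.78 and -0.69), for HTA9 in bent seeds (-0.58 and -0.72) and for HTA8 in mature seeds (-0.25 and -0.55). Both estimates use the same 23 °C libraries, and the bounds leave out the error of the 27 °C estimate. They therefore do not test a difference between 25 °C and 27 °C. Compared directly by DESeq2, HTA11 at 27 °C against 25 °C was not called in heart (adjusted p = 0.0586) or bent seeds (adjusted p = 0.0987). This depends on the fit: with only the groups compared, it was called lower in heart (log2 fold change -0.57, adjusted p = 0.000365) and bent seeds (-0.48, adjusted p = 6.88e-05).

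The step from 25 °C to 27 °C was compared directly because the comparisons with 23 °C share their control libraries. At 27 °C against 25 °C, the number of genes called was 0 for heart, 1 for bent and 3 for mature embryos, each gene being lower (DESeq2 and edgeR alike, with 2 genes under an unadjusted p of 0.05 in heart seeds; 8.77%, 11.8% and 17.8% of all genes were called lower). HTA9 was the gene in bent seeds (log2 fold change -0.41, SE 0.14, adjusted p = 0.0178), a call lost without replicate 2 at 25 °C, replicate 1 at 27 °C or replicate 3 at 27 °C (adjusted p = 0.112, 0.0548 and 0.0842). In mature seeds HTA8 had 122, 116 and 120 normalised counts at 27 °C, against 131, 275 and 158 at 25 °C. HTA11 had 174, 250 and 293 normalised counts at 27 °C, against 378, 631 and 289 at 25 °C. With all libraries the log2 fold change was -0.67 for HTA8 (SE 0.19, adjusted p = 0.00306) and -0.86 for HTA11 (SE 0.24, adjusted p = 0.00237). Replicate 2 at 25 °C was the highest library of both genes, and without it neither was called (log2 fold change -0.28 with adjusted p = 0.244 for HTA8, -0.48 with adjusted p = 0.115 for HTA11). ARP6 was lower in mature seeds (-0.34, SE 0.08, adjusted p = 0.000204), with 378, 366 and 353 normalised counts at 27 °C, against 439, 482 and 460 at 25 °C.

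The same genes were followed across development at each temperature. In mature seeds HTA8 and HTA11 were far lower than in bent seeds, while HTA9 and PIE1 depended on the scaling. In mature against bent seeds at 23 °C, 4 of the 6 tested genes were called lower and 1 higher (27% and 23.4% of all genes). HTA8 averaged 175 ± 13.2 normalised counts in mature and 551 ± 95.2 in bent seeds at 23 °C, and fell by 1.66 on the log2 scale (SE 0.18, adjusted p = 3.64e-19). HTA11 averaged 387 ± 97.9 in mature and 1146 ± 272.6 in bent seeds, and fell by 1.57 (SE 0.24, adjusted p = 3.10e-10). At 25 °C and 27 °C the same step gave log2 fold changes of -1.38 and -1.79 for HTA8 and of -1.13 and -1.48 for HTA11, and each of these was called. HTA9 averaged 2036 ± 16.0 normalised counts in mature and 2559 ± 839.8 in bent seeds at 23 °C (log2 fold change -0.33, SE 0.14, adjusted p = 0.0339), and without replicate 3 of bent seeds the change was -0.03 (adjusted p = 0.778). Without any 1 of the mature libraries at 23 °C the call was lost as well (-0.33 to -0.32, adjusted p from 0.0708 to 0.0818). At 25 °C and 27 °C HTA9 was not called (-0.28 and -0.13), but with library totals it was lower (-0.64, adjusted p = 4.81e-11, and -0.50, adjusted p = 4.01e-07).

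PIE1 was higher at both steps of development at all 3 temperatures, with log2 fold changes of 0.33 to 0.40 from heart to bent and of 0.32 to 0.38 from bent to mature seeds. At 23 °C it averaged 1301 ± 116.7, 1712 ± 128.4 and 2142 ± 110.3 normalised counts in heart, bent and mature seeds. Both steps depend on the scaling. With library totals, which put the median of all genes at -0.24, -0.37 and -0.38 in mature against bent seeds, the log2 fold change of PIE1 was 0.08, 0.0006 and 0.0062 at 23, 25 and 27 °C, and none was called; in bent against heart seeds it was 0.23 at 23 °C and 0.25 at 27 °C (adjusted p = 0.0574 and 0.0594). ARP6 was lower in mature than in bent seeds at 23 °C (log2 fold change -0.24, adjusted p = 0.00332) and 27 °C (-0.29, adjusted p = 0.000629). In bent against heart seeds at 23 °C, HTA9, PIE1 and SWC6 were called higher and ARP6 lower (29.3% and 29.6% of all genes). Of these, PIE1 alone was called when the 2 libraries that stand apart at 23 °C were left out. At 25 °C bent seeds had 2 genes higher and 1 lower than heart seeds (27% and 30.8% of all genes), and at 27 °C 1 higher and 1 lower (20.7% and 22.2%), HTA11 being the lower one both times (-0.91 and -0.84). Mature against bent seeds had 1 higher and 2 lower at 25 °C (23.4% and 22.5% of all genes) and 1 higher and 3 lower at 27 °C (24.6% and 23.9%).

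**Figure D3:**
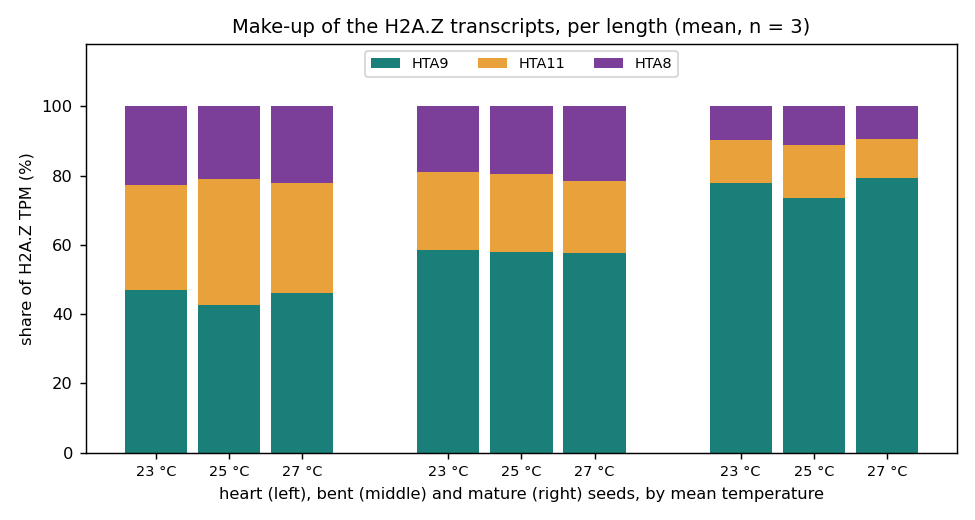
Share of the H2A.Z transcripts per length (TPM, y axis, percent) that came from HTA9, HTA11 and HTA8 in each stage and temperature (x axis), means of 3 libraries. HTA9 made up 46.9%, 58.6% and 78.0% in heart, bent and mature seeds at 23 °C.

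The make-up of the H2A.Z transcripts thus differed between stages. Of the H2A.Z transcripts per length at 23 °C, HTA9 made up 46.9%, 58.6% and 78.0% in heart, bent and mature seeds, HTA11 30.4%, 22.5% and 12.2%, and HTA8 22.7%, 18.9% and 9.82%. At 27 °C the HTA9 shares were 46.0%, 57.7% and 79.4% over the same stages.

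To set the H2A.Z genes against the rest of their family, their share of all counts at 13 H2A loci was computed in each library; this ratio does not depend on the size factor. The share at 27 °C minus that at 23 °C averaged -2.98 percentage points over the stages (exact permutation test within stages, 2-sided, p = 0.0075; the smallest p that 8000 relabellings can give is 0.00025). In mature seeds the share was 22.4%, 22.7% and 23.9% at 27 °C, against 29.7%, 30.4% and 30.04% at 23 °C. In bent seeds it was 23.6%, 23.9% and 23.2% at 27 °C, against 24.7%, 25.4% and 26.8% at 23 °C, and in heart seeds 27.3%, 26.4% and 25.7% at 27 °C, against 27.0%, 25.5% and 26.3% at 23 °C. The mature and bent libraries did not overlap, and the heart libraries did. At 25 °C against 23 °C the mean difference was -0.53 percentage points (exact permutation test, p = 0.391), with mature libraries at 28.4%, 27.4% and 26.9% for 25 °C, between those of 27 °C and 23 °C.

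**Figure D4:**
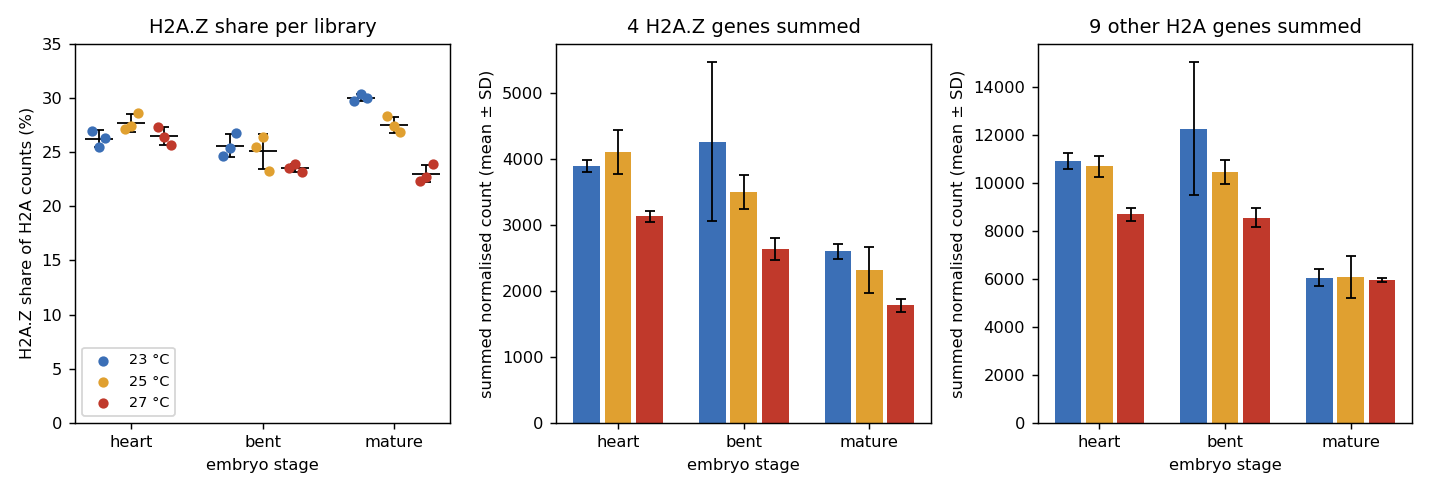
Left, share of the 4 H2A.Z loci in the counts of all 13 H2A loci (y axis, percent) per library (points) with mean ± SD; middle and right, summed normalised counts (y axis, mean ± SD, n = 3) of the 4 H2A.Z genes and of the 9 other H2A genes, by stage (x axis) and temperature (colour). In mature seeds the H2A.Z sum is lower at 27 °C (1777) than at 23 °C (2597) while the sum of the other genes is 5949 and 6049.

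The sums behind the share differed between stages. In heart seeds the H2A.Z genes summed to 3126 ± 84.3 normalised counts at 27 °C and 3882 ± 90.6 at 23 °C, and the 9 other H2A genes to 8688 ± 270.6 and 10912 ± 344.3. In bent seeds the H2A.Z sum was 2631 ± 164.5 at 27 °C and 4258 ± 1205.4 at 23 °C, and that of the others 8547 ± 398.0 and 12261 ± 2776.7. In mature seeds the H2A.Z sum was 1777 ± 100.3 at 27 °C and 2597 ± 117.0 at 23 °C, while the others had 5949 ± 68.5 and 6049 ± 365.1. The lower share in mature seeds thus came with fewer H2A.Z counts and nearly level counts of the other H2A genes, whereas in heart seeds both sums were lower at 27 °C.

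The other H2A genes (canonical H2A, H2A.X of DNA repair and H2A.W of heterochromatin) were also tested one by one. At 27 °C against 23 °C, 0 of 9 were called higher at any stage (DESeq2). Those lower numbered 4 of 9 in heart seeds, 7 of 9 in bent seeds and 0 of 9 in mature ones, where 3 had an unadjusted p under 0.05. Genes of this and the following lists were not refitted with libraries left out, so the part of replicate 3 of bent seeds at 23 °C in these calls was not tested. The sum of the other H2A genes ran from 10274 to 15434 normalised counts in bent seeds at 23 °C. Of all genes, 11.5%, 21% and 15.4% were called lower at the successive stages, and 12.6%, 15.9% and 14.7% higher. Scaled by library totals, 0 of the genes called here and in the lists that follow changed direction. The median log2 fold change of the other H2A genes was -0.30, -0.48 and -0.06, against -0.01, -0.02 and 0.00 over all genes, while the 3 H2A.Z genes had medians of -0.34, -0.72 and -0.55. The largest decreases were those of HTA6, an H2A.W gene (-0.86, SE 0.22, adjusted p = 0.000558, in bent seeds), HTA13, a canonical H2A gene (-0.75, SE 0.23, adjusted p = 0.00443, in bent seeds), and HTA7, a second H2A.W gene (-0.61, SE 0.10, adjusted p = 5.81e-08, in bent seeds).

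Of 10 other SWR1 subunits, 9 were tested, and RVB2B was not. In heart seeds at 27 °C, 2 were lower and 1 higher, in bent seeds 3 were lower and 1 higher, while 3 were lower in mature seeds and 0 higher. Among all genes 11.5%, 21% and 15.4% were lower over these stages, and 12.6%, 15.9% and 14.7% higher. The median log2 fold change of these subunits was -0.08, 0.05 and 0.00 (0.00, 0.20 and 0.03 with library totals). RIN1, a RuvB-like ATPase shared with other remodelling complexes and named after its values were seen, was lower at all 3 stages (log2 fold change -0.30, -0.24 and -0.25, adjusted p = 0.00134, 0.0138 and 0.0207). YAF9A, which reads histone acetylation, was lower in bent and mature seeds (-0.40 and -0.29), as was ARP4 (-0.32 and -0.23), while YAF9B was lower in heart seeds only by this threshold (-0.44). MBD9, a methyl-CpG-binding domain protein, was higher in heart and bent seeds (0.19 and 0.17, adjusted p = 0.00484 and 0.00873). Of 5 genes for removal or chaperoning of H2A.Z, INO80, the ATPase of a second remodelling complex, was lower at all 3 stages (-0.28, -0.25 and -0.34, adjusted p = 1.26e-06, 2.97e-05 and 3.07e-09). The histone chaperone gene NRP1 was higher in mature seeds (0.33, adjusted p = 0.0267), and ARP5, EEN and NRP2 were not called.

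**Figure D5:**
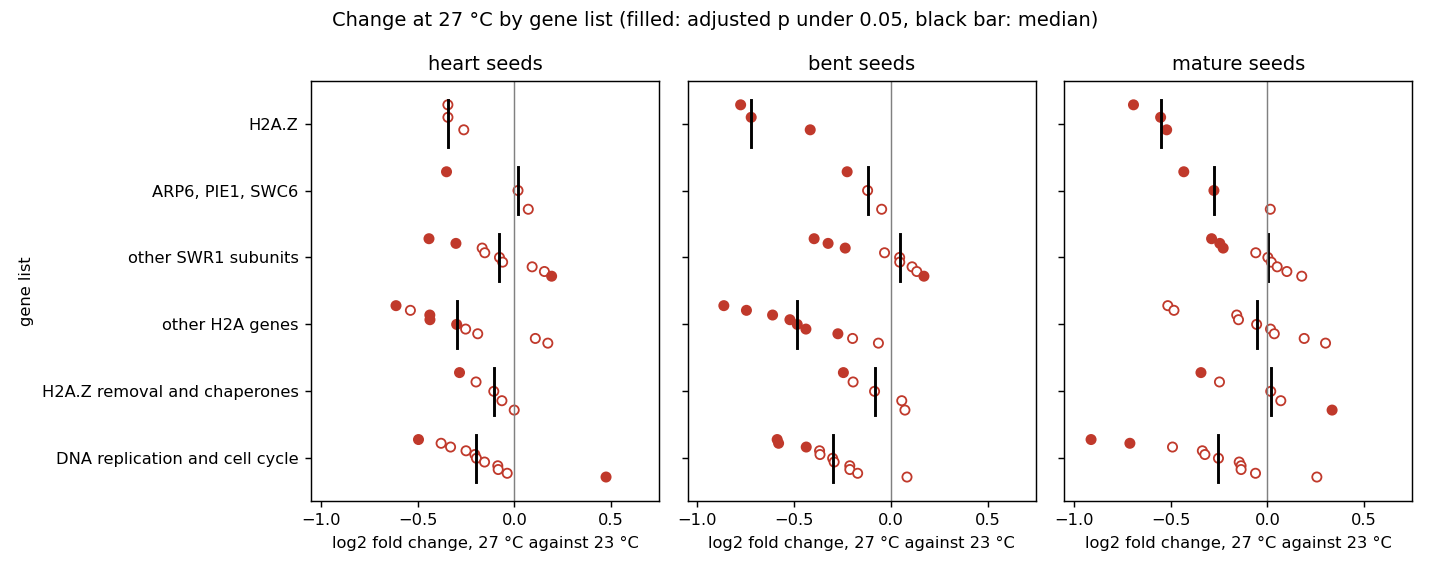
Log2 fold change at 27 °C against 23 °C (x axis) of the tested genes of the lists (y axis) in heart, bent and mature seeds; filled points have an adjusted p under 0.05 and black bars are list medians. The H2A.Z medians are -0.34, -0.72 and -0.55, and those of the other H2A genes -0.30, -0.48 and -0.06.

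Genes known from other work to be controlled through SWR1 or H2A.Z were read in the same way. Of 6 genes at 27 °C, the number higher over the successive stages was 2, 2 and 1 (12.6%, 15.9% and 14.7% of all genes). The number lower was 1, 0 and 2 (11.5%, 21% and 15.4% of all genes). HSP70 (AT3G12580), a heat shock chaperone gene, averaged 6553 ± 703.0, 7052 ± 1072.1 and 7301 ± 744.1 normalised counts at 27 °C in heart, bent and mature seeds, against 969 ± 294.4, 2787 ± 1184.3 and 2444 ± 512.7 at 23 °C. It was called higher at each stage (log2 fold change 2.76, 1.34 and 1.58). FLC, a repressor of flowering, averaged 108 ± 10.1 normalised counts at 27 °C and 22.0 ± 10.9 at 23 °C in heart seeds (2.30, adjusted p = 9.53e-19) but 233 ± 18.9 at 27 °C and 395 ± 41.6 at 23 °C in mature seeds (-0.76, adjusted p = 0.000159). PIF4, a transcription factor of the temperature response, was lower in heart and mature seeds (-1.29 and -1.31), MAF4, a relative of FLC, was higher in bent seeds (0.93, adjusted p = 0.000621), and FT and MAF5 were not called. The genes of this list moved in both directions, and no test links them to the H2A.Z genes.

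Genes of canonical histones are known to be expressed with DNA replication, so 11 genes of replication and the cell cycle were read beside them. In mature against bent seeds 11 of 11 were lower at each temperature, with median log2 fold changes of -1.70, -1.39 and -1.63 at 23, 25 and 27 °C, close to those of HTA8 and HTA11. That step had 27%, 22.5% and 23.9% of all genes lower. At 27 °C against 23 °C, 1 was higher and 1 lower in heart, 3 lower in bent and 2 lower in mature seeds (of all genes, 11.5%, 21% and 15.4% were lower, and 12.6%, 15.9% and 14.7% higher). These were the mitotic genes CDKB2;1 (log2 fold change 0.47, -0.59 and -0.71 over the successive stages) and CYCB1;1 (-0.58 in bent and -0.91 in mature seeds) and the replication gene MCM7 (-0.50 in heart and -0.44 in bent seeds). The part of cell division in the temperature effect on the H2A.Z genes was not tested.

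The genes with the most similar pattern over the 27 libraries were found by Pearson's r of log2 normalised counts among 15775 genes. Libraries share stage and temperature, so r is a description. HTA8 was most like MCM3 (r = 0.986), PRL (r = 0.984, the MCM7 gene) and RNR1 (r = 0.983, ribonucleotide reductase), all genes of DNA replication. HTA11 was most like ENODL15 (r = 0.973), CDKB1;1 (r = 0.972, a cyclin-dependent kinase) and MSI2 (r = 0.970). HTA8 and HTA11 resembled each other (r = 0.956), whereas HTA9 resembled neither (r = 0.312 and 0.296), its nearest genes being AT1G24050 (r = 0.950), AT1G67700 (r = 0.939) and AT2G26500 (r = 0.932). The SWR1 genes did not follow one pattern either. PIE1 was most like AT3G51620 (r = 0.987), AT3G46920 (r = 0.980) and PRORP3 (r = 0.979), and it ran against HTA8 (r = -0.861) and HTA11 (r = -0.885). These r rest on size factors, on which the rise of PIE1 over development depends, and r with library totals was not computed. PIE1 and SWC6 went together (r = 0.679), while ARP6 ran against PIE1 (r = -0.624) and SWC6 (r = -0.359). ARP6 was most like IMD2 (r = 0.934), AT3G14840 (r = 0.931) and CALS1 (r = 0.913), and SWC6 like AT3G02790 (r = 0.857), AT1G10660 (r = 0.853) and AT3G26922 (r = 0.834).

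In bulk seeds, fewer cells of a type and less RNA per cell cannot be told apart, and counts of tissue markers moved with temperature. The marker counts below stand beside 11.5%, 21% and 15.4% of all genes lower at 27 °C in heart, bent and mature seeds, and 12.6%, 15.9% and 14.7% higher. The 4 pollen markers were lower at 27 °C at all 3 stages (4 of 4 called), with sums of 143 to 248, 60.4 to 141 and 36.1 to 74.0 normalised counts at 27 °C in heart, bent and mature seeds, against 729 to 1889, 439 to 947 and 219 to 820 at 23 °C. Of the 4 leaf or silique wall markers, 1, 3 and 4 were lower at these stages, with sums of 54146 to 61668, 63911 to 74183 and 62459 to 70022 at 27 °C, against 65705 to 78559, 107060 to 209470 and 124330 to 129790 at 23 °C. These 4 are photosynthesis genes, and at 23 °C their sum was higher in mature than in heart seeds. The paper describes green mature embryos and reports repressed photosynthesis genes in seeds under severe stress. The 4 genes therefore do not tell leaf or silique wall from green seed tissue. Of 5 seed coat markers 3 were higher and 2 lower in heart seeds, and 2 were lower in bent and in mature seeds, with sums of 31191 to 33930, 32668 to 34370 and 16715 to 18042 at 27 °C, against 28241 to 34356, 39615 to 68832 and 23123 to 30004 at 23 °C. The 6 endosperm markers had a sum of 10530 to 12374 normalised counts in heart seeds at 27 °C, against 2485 to 4978 at 23 °C, and 1 was called higher and 1 lower there. Their sums overlapped in bent (71404 to 106010 at 27 °C, 46123 to 82546 at 23 °C) and mature seeds (162230 to 190400 and 172330 to 191310). EPR1 outweighs the others in these sums, with a mean count of 81018 over all libraries against 29.6 to 424. The 9 embryo maturation markers had sums of 7918 to 13372 normalised counts in heart seeds at 27 °C, against 646, 1268 and, in replicate 1, 94330 at 23 °C. These 27 °C sums lay above those of the other 2 libraries at 23 °C and below that of replicate 1, which took part in the test that called 2 of the markers lower in heart seeds. In bent and mature seeds 0 were called, and the sums were 125090 to 260640 and 2672200 to 4112200 at 27 °C, against 99610 to 128490 and 2769900 to 3108100 at 23 °C. No marker of pollen, leaf, endosperm or seed coat was at 0 in all libraries of a group, and the part of these tissues in the changes of the H2A.Z and SWR1 genes was not tested.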

How the data were processed

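The authors extracted total RNA from whole seeds, enriched mRNA, sequenced single-end reads and quantified them against Araport11 transcripts with Salmon. The deposited table holds expected counts (estimated counts) per transcript and library, not normalised, and 61.5% of its values are not whole. Which strand reads were counted on is not given in the sources used here.

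Counts were summed per locus and rounded. All 27 libraries entered 1 fit of 9 groups in DESeq2 1.42.0 (R 4.3.3) with median-of-ratios size factors, on the 21445 genes that reached 10 counts in 3 or more libraries. A gene was called where its p, adjusted over all of them by Benjamini-Hochberg, was under 0.05 (Wald test, 2-sided, independent filtering on). TPM used the effective length in the table. The test was checked on simulated counts. Alternatives included edgeR 4.0.16, other scalings and filters, the replicate number as a block and leaving out libraries. The members and lists were chosen with earlier results of these data known. Genes named from a list are up to 3 per direction with the largest change called for 27 °C against 23 °C at some stage, and the 3 genes most similar to each member, with a mean normalised count of at least 100. Gene names and positions came from RefSeq TAIR10.1, in which 27392 loci (99.3%) were found and all 13 transcripts of the 7 genes had the same length as in the table. All columns belonged to the 27 libraries.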

Additional observations from a re-analysis of the deposited data

Results flagged for a closer look

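The share of the 4 H2A.Z loci in all H2A counts was lower at 25 °C than at 23 °C in mature seeds and not in heart seeds. In mature seeds it was 28.4%, 27.4% and 26.9% at 25 °C, against 29.7%, 30.4% and 30.04% at 23 °C, a difference of -2.51 percentage points. In heart seeds it was 27.1%, 27.4% and 28.6% at 25 °C, against 27.0%, 25.5% and 26.3% at 23 °C, a difference of 1.47 percentage points. The mature effect minus the heart effect was -3.98 percentage points (exact permutation test of the temperature labels within stages, p = 0.005, the smallest that 400 relabellings can give, adjusted p = 0.03 over 6 such contrasts). Because the labels were exchanged within each stage, this p refers to the absence of a temperature effect at both stages, and whether the effects of the stages are equal was not tested. The same contrast at 27 °C was -7.27 percentage points (exact permutation test, p = 0.035, adjusted p = 0.105).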

How the results depend on the processing

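None of the tested H2A.Z and SWR1 genes of the group changed direction in an alternative where it was called. For genes of the other lists, library totals were the only alternative read. Counts of genes called that moved by over 1.5 times were as follows. For 27 °C against 23 °C, 1 gene was called in heart seeds, but 2 with TMM size factors, 2 without both 23 °C libraries that stand apart (chosen after seeing the data) and 4 with a fit of only the groups compared. In bent seeds 4 became 2 with library totals, 2 without both libraries and 2 with only the groups compared, and in mature seeds 5 became 3 with library totals and 3 with only the groups compared. For 25 °C against 23 °C in mature seeds, 0 became 1 without both libraries. For 27 °C against 25 °C, 0 in heart seeds became 2 without both libraries and 2 with only the groups compared, and 1 in bent seeds became 2 with only the groups compared. For bent against heart seeds at 23 °C, 4 became 1 without both libraries and 1 with only the groups compared; at 25 °C, 3 became 5 with only the groups compared; at 27 °C, 2 became 1 with library totals. For mature against bent seeds, 5 became 3 at 23 °C with only the groups compared, and 3 became 5 at 25 °C with library totals. The cause was not tested.

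Leaving out 1 library at a time gave 2 to 4 (27 °C against 23 °C, bent), 2 to 5 (mature), 0 to 1 (25 °C against 23 °C, bent), 0 to 1 and 1 to 3 (27 °C against 25 °C, bent and mature), 2 to 4 (bent against heart at 23 °C) and 0 to 1 (27 °C effect, bent minus heart). The lowest count in bent seeds came without replicate 3 at 23 °C or replicate 1 at 27 °C, and that in mature seeds without replicate 1 at 23 °C.

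With the replicate number as a block, the counts for 27 °C against 23 °C were 1, 4 and 5, and no count moved. Pairing by replicate number was looked for by correlating the deviations of libraries with the same number. In each comparison 1 or more of the 3 correlations was at or under 0.1, so no pairing was used. Single correlations reached 0.49 (25 °C against 23 °C, heart seeds) and 0.547 (27 °C against 25 °C, bent seeds), and with 3 libraries per group this cannot exclude pairing. The shares of H2A.Z kept their direction and side of the threshold under all 3 other definitions at 27 °C (-5.19 to -2.44 percentage points, exact permutation p from 0.00075 to 0.014). At the depth of these libraries SWC6 had 77.3 to 162 normalised counts, and its changes had standard errors of about 0.16 on the log2 scale.

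With library totals, the share of higher ones among all genes called moved by over 10 percentage points in further comparisons. The numbers called higher and lower follow, size factors before library totals. They were 26 and 631, then 162 and 63, for 25 °C against 23 °C in bent seeds, and 2321 and 1880, then 2366 and 999, for 27 °C against 25 °C in heart seeds. For bent against heart seeds they were 6277 and 6341, then 4026 and 8046, at 23 °C and 4433 and 4770, then 3143 and 5304, at 27 °C. For mature against bent seeds they were 5017 and 5780, then 2451 and 8599, at 23 °C, 5016 and 4820, then 1929 and 10798, at 25 °C, and 5281 and 5129, then 1897 and 11104, at 27 °C. The 27 °C effect gave 1261 and 1886, then 1186 and 1105, for bent minus heart, and 476 and 703, then 190 and 857, for mature minus bent.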
